A study of Homo sapiens with 18 samples.

Results

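The mRNAs of the complex I subunits that human mitochondrial DNA encodes, MT-ND1, MT-ND2, MT-ND3, MT-ND4L, MT-ND4, MT-ND5 and MT-ND6, were followed through newly made and total RNA of HEK293 cells, a human embryonic kidney line. They were taken by name, and all 7 were found among the 63568 gene entries of the authors' expression table. MT-ND6 is the light-strand member, and the other 6 are heavy-strand mRNAs. The study's title names its aim as a classification of genes by RNA metabolism. Total RNA, without streptavidin selection, gave 3 libraries: replicate 1 was selected with oligo-dT (the poly(A) library), replicate 2 had ribosomal RNA removed with RNase H and DNA oligos (the RNase H library), and replicate 3 with Ribo-Zero (the Ribo-Zero library). Newly made RNA was tagged by 500 µM 4-thiouridine, a uridine analogue, for 7.5, 15, 30, 45 or 60 min, then biotinylated and pulled down on streptavidin, with 3 libraries per time. No genotype or other treatment is given for any group. Values are TPM, the authors' transcript abundance per length and per library, and they are shares: a value can move because other RNAs did.

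Complex I passes electrons from NADH to ubiquinone and pumps protons across the inner mitochondrial membrane. Its membrane arm is built around the mitochondrially encoded subunits, and its other subunits come from nuclear genes. Mitochondrial DNA is copied into long RNAs from both strands, which are cut at tRNAs into mRNAs, then given short poly(A) tails and stabilised by the LRPPRC and SLIRP proteins. MT-ND6 is the mRNA read from the light strand, whose long RNA otherwise holds few genes and is largely degraded, and it is known for having no tail or only a very short tail.

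The members differ in how much of the stop codon their annotated genes encode. On chrM of GRCh38, with sequences from the GENCODE release 29 transcripts, the heavy-strand members lie at chrM:3307-4262 (MT-ND1), chrM:4470-5511 (MT-ND2), chrM:10059-10404 (MT-ND3), chrM:10470-10766 (MT-ND4L), chrM:10760-12137 (MT-ND4) and chrM:12337-14148 (MT-ND5). MT-ND6 lies on the other strand at chrM:14149-14673. All are intronless. The last 30 bases of each annotated gene are shown, 5′ to 3′, with the letters of the stop codon in capitals. In some members only the first letters of the stop codon are encoded and the tail completes it. The annotated end is not always the mRNA end, since the mRNA of MT-ND4L also carries MT-ND4.
MT-ND1: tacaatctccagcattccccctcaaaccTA
MT-ND2: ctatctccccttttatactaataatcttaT
MT-ND3: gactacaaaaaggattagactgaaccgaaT
MT-ND4L: gtacataacctaaacctactccaatgcTAA
MT-ND4: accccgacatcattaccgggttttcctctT
MT-ND5: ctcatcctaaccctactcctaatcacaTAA
MT-ND6: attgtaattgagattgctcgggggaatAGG
MT-ND4L and MT-ND5 carry a whole TAA, and MT-ND6 ends in AGG, which is not read as arginine in human mitochondria. MT-ND4L and MT-ND4 share 7 bases and are carried on the same mRNA in cells. The start of MT-ND4, with the shared bases in capitals, shows that overlap.
MT-ND4: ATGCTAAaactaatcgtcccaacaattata
The next pair are the first 60 bases of MT-ND6 and of its neighbour MT-ND5, with T (uridine in the RNA, the base that 4-thiouridine replaces) in capitals.
MT-ND6: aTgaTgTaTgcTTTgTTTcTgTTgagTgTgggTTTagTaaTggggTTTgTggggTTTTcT
MT-ND5: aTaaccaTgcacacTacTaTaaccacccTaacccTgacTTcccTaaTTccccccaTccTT
Over its whole length MT-ND6 holds 37.7% uridine, against 23.8% (MT-ND1) to 30.3% (MT-ND3) in the heavy-strand members and a median of 23.3% over 83116 protein-coding nuclear transcripts. A transcript richer in uridine offers more places for the label, and the part of this in the labelled values was not tested. The lengths range from 297 bases (MT-ND4L) and 346 bases (MT-ND3) to 1812 bases (MT-ND5), and TPM of the short members depend most on how the authors' counting treats fragment length.

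Read depth is unknown, since TPM do not carry it. Mature values above 0 were listed for 15159 genes (labelled 45 min replicate 2) to 24470 genes per library. Of 7 HEK293 markers 6 had a labelled median of at least 1 TPM, all but NEFM (0.26 TPM). In the total libraries 5 of them had at least 1 TPM each time, and NEFM and PAX2 (lowest 0.15 TPM) did not. Of 11 markers of other cell types, HBA1 (median 3.51 TPM) and COL1A1 (median 1.56 TPM) had a labelled median of at least 1 TPM. CD3E, HBB and COL1A2 were listed at 0 in every library. In the total libraries HBA1 and the macrophage marker CD68 (2.42 to 13.3 TPM) had at least 1 TPM each time. Unspliced transcripts held 7.19% to 11% of TPM at 60 min and 22.3% to 23.8% at 7.5 min, which changes what mature TPM are a share of. The labels do not say whether the replicates are separate cultures. A p-value here therefore reflects the spread between libraries, which may be technical.

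All 7 mRNAs were among the abundant RNAs of the labelled libraries. Together they held 5.05% to 7.68% of mature TPM after 7.5 min of label, 7.84% to 9.05% after 15 min, 8.09% to 10.6% after 30 min, 7.43% to 9.99% after 45 min and 8.03% to 10.0% after 60 min. In total RNA they held 4.56% with poly(A) selection, 4.07% with RNase H and 0.04% with Ribo-Zero. Levels per length ran from MT-ND1 at the top to MT-ND6 at the bottom at each of the 5 labelling times. At 60 min the mean was 22837 ± 5869 TPM for MT-ND1, 19923 ± 2968 for MT-ND2, 16187 ± 1851 for MT-ND4, 12178 ± 1384 for MT-ND5, 4994 ± 227 for MT-ND4L, 3832 ± 718 for MT-ND3 and 1747 ± 305 for MT-ND6 (SD, n = 3 each). The ranges of MT-ND1 and MT-ND2 overlapped at 60 min, as did those of MT-ND2 and MT-ND4, while each later neighbour in that order was separated from the next in all 3 libraries. The order of the 4 longest heavy-strand members is also their order along the genome. MT-ND3 and MT-ND4L break it, since they lie between MT-ND2 and MT-ND4 and were lower than all 4. MT-CYB, which lies past MT-ND5, was higher than MT-ND5 at 60 min, with a mean of 13328 TPM. In total RNA the 4 ranked by mean as MT-ND4, MT-ND2, MT-ND5 and MT-ND1.

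**Figure D1:**
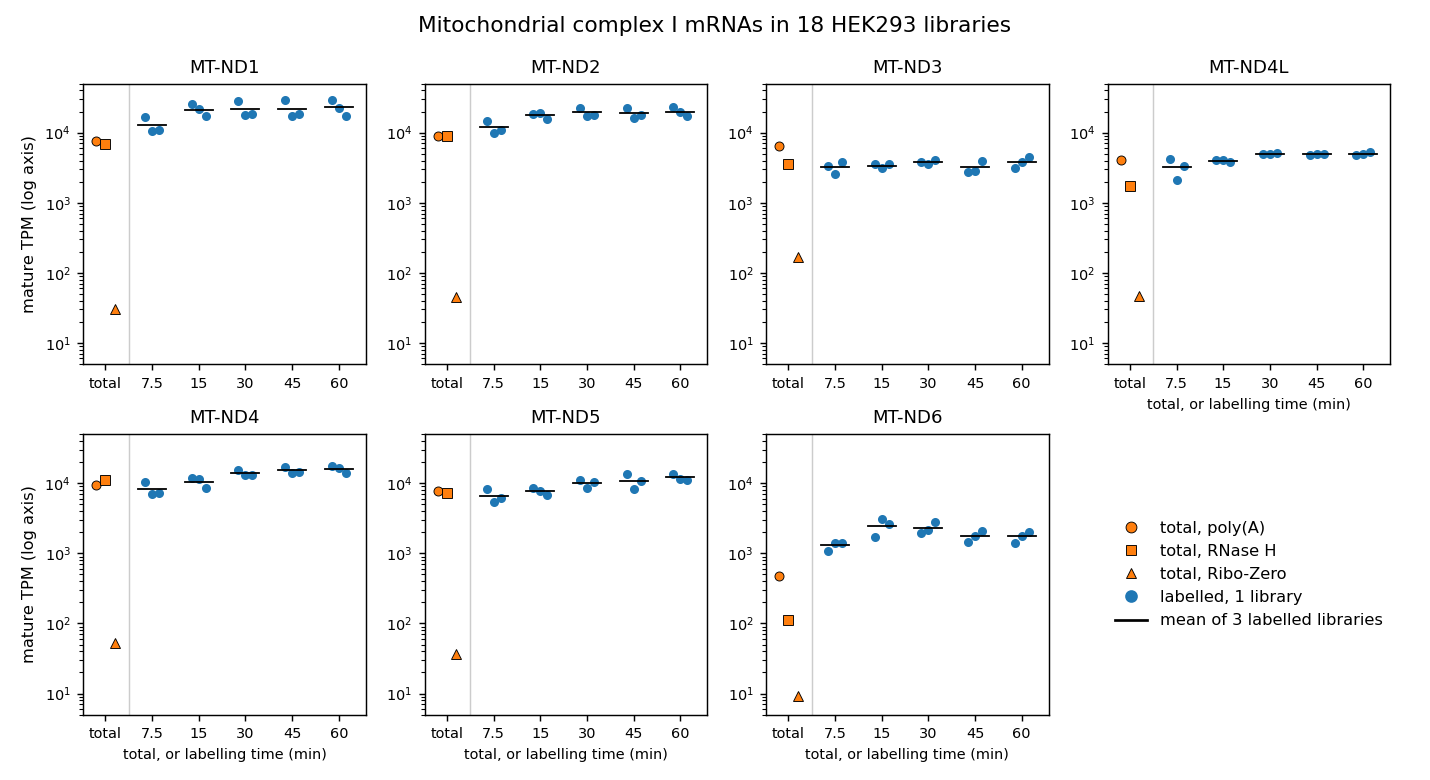
Mature TPM (log axis) of each complex I mRNA in total RNA (orange, 1 library per selection method) and in labelled RNA at 5 labelling times in min (blue, 1 point per library, line at the mean). The Ribo-Zero total library is the lowest of all 18 libraries in every panel, at 9.22 TPM for MT-ND6 and 167 TPM for MT-ND3.

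The subunits MT-ND2, MT-ND4 and MT-ND5, which are related to antiporters and form the proton-pumping part of the membrane arm, and MT-ND4L, which sits between that part and the quinone site, rose over labelling. MT-ND4 had 10413, 7032 and 7199 TPM in the 3 libraries at 7.5 min, 11701, 11366 and 8547 TPM at 15 min, 15289, 12979 and 13287 TPM at 30 min, 17263, 14180 and 14637 TPM at 45 min, and 17804, 16590 and 14169 TPM at 60 min. Every library from 30 min on lay above every library at 7.5 min. MT-ND4 rose by 1.00 on the log2(TPM + 1) scale at 60 against 7.5 min (SE 0.21, limma adjusted p = 0.00379). MT-ND5 had 8303, 5418 and 6215 TPM after 7.5 min, 8658, 7876 and 6848 TPM after 15 min, 11216, 8529 and 10570 TPM after 30 min, 13555, 8415 and 10847 TPM after 45 min, and 13741, 11686 and 11106 TPM after 60 min. It was higher in all 3 libraries at 60 min than in any at 7.5 min, by 0.89 on the log2 scale (SE 0.22, limma adjusted p = 0.011). MT-ND2 averaged 19923 ± 2968 TPM after 60 min and 11915 ± 2610 TPM after 7.5 min (SD, n = 3 each), which is 0.75 on the log2 scale (SE 0.22, limma adjusted p = 0.0272). MT-ND4L had 4836, 4893 and 5254 TPM at 60 min and 4171, 2137 and 3334 TPM at 7.5 min, which is 0.69 on the log2 scale (SE 0.20, limma adjusted p = 0.0253). Its libraries at 30, 45 and 60 min kept within 4747 to 5254 TPM, a narrow band beside the other members.

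MT-ND1 and MT-ND3, which border the quinone site and the junction with the peripheral arm, did not pass. The change of MT-ND1 was larger than those of MT-ND2 and MT-ND4L, which passed. The members are thus split by the threshold, and a difference by place in the complex was not tested. MT-ND1 had 16642, 10676 and 10949 TPM after 7.5 min, 25339, 21436 and 17037 TPM after 15 min, 28334, 18110 and 18466 TPM after 30 min, 28857, 17220 and 18386 TPM after 45 min, and 28953, 22308 and 17251 TPM after 60 min. Its libraries at 60 min all lay above those at 7.5 min, but replicate 1 was the highest at each of the 5 times (log2 change 0.84, SE 0.29, limma adjusted p = 0.0552). MT-ND3 had 3128, 3805 and 4564 TPM at 60 min and 3361, 2595 and 3793 TPM at 7.5 min, and these overlap (log2 change 0.24, SE 0.20, limma adjusted p = 0.471).

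Counted together, 4 of the 7 members were higher at 60 than at 7.5 min and none was lower by limma, where 5 of 7 had an unadjusted p under 0.05. The same test called 15.8% of 16739 genes higher and 20.1% in either direction. The median log2 change was 0.75 over the members and 0.24 over all genes tested. In 6 of 7 members (all but MT-ND3) the 3 libraries at 60 min lay above the 3 at 7.5 min, which held for 29.8% of genes. At 30 against 7.5 min MT-ND4L, MT-ND4 and MT-ND6 passed (background 5.70% higher), and at 45 against 7.5 min MT-ND4L, MT-ND4 and MT-ND5 did (12.3% higher). None passed at 15 against 7.5 min, where limma called 0.0478% of genes and 3 members (MT-ND1, MT-ND2 and MT-ND6) had an unadjusted p under 0.05. The F test over the 5 times called MT-ND4 and MT-ND5 (adjusted p = 0.0133 and 0.0477, 16.2% of genes called).

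The size of these changes depends on what TPM are scaled to. With TPM rescaled over mature transcripts the median change of all genes was 0.03 and MT-ND4 was the 1 member called (log2 change 0.76). With median-ratio scaling that median was −0.05 and no member passed (MT-ND4 0.65, limma adjusted p = 0.152), and quantile normalization, with a median of 0.01, called MT-ND6 alone (0.96, limma adjusted p = 0.0235). MT-ND3 turned to −0.11 with median-ratio scaling, while the other 6 were above 0 under all 3. Without labelled 60 min replicate 1 the count was 1, and without labelled 60 min replicate 2 or labelled 7.5 min replicate 2 it was 2.

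**Figure D2:**
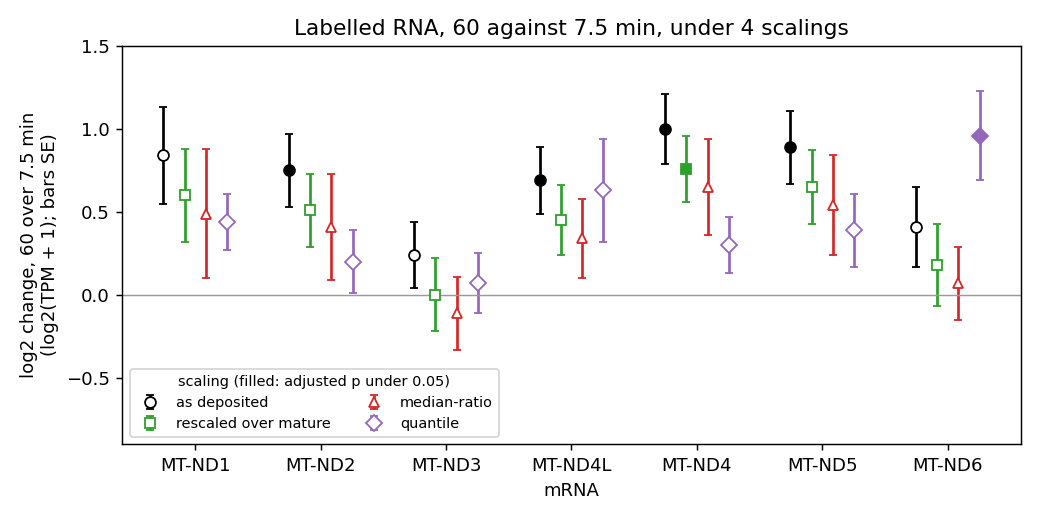
Log2 change at 60 over 7.5 min of labelling for each mRNA on the log2(TPM + 1) scale, with TPM as deposited (black) and under 3 other scalings (colours), bars showing SE from limma and filled symbols an adjusted p under 0.05. With TPM as deposited 4 members are called, and MT-ND4 falls to 0.65 and is not called with median-ratio scaling.

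MT-ND6, a small membrane subunit next to MT-ND3 and MT-ND4L, was the least abundant. It was at 1095, 1413 and 1408 TPM after 7.5 min, 1691, 3064 and 2646 TPM after 15 min, 1937, 2179 and 2801 TPM after 30 min, 1433, 1796 and 2067 TPM after 45 min, and 1428, 1778 and 2035 TPM after 60 min. Its mean was highest at 15 and 30 min, and the libraries at 60 min lay only just above those at 7.5 min. Its log2 change against 7.5 min was 0.88 after 15 min (limma adjusted p = 0.183), 0.81 after 30 min (adjusted p = 0.046), 0.43 after 45 min (adjusted p = 0.245) and 0.41 after 60 min (adjusted p = 0.255). Across the 15 labelled libraries, which share their TPM scaling, the log2(TPM + 1) of MT-ND6 correlated with the heavy-strand members at Pearson r from 0.00 (MT-ND5) to 0.36 (MT-ND3), while MT-ND1 and MT-ND2 correlated at 0.97 and MT-ND4 and MT-ND5 at 0.95.

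Whether MT-ND6 moved against the heavy-strand mRNAs was tested directly, as its log2 level less the mean log2 level of the 12 heavy-strand mRNAs in the same library. That difference was −3.10, −2.27 and −2.40 in the 3 libraries after 7.5 min, −2.65, −1.74 and −1.67 after 15 min, −2.63, −2.16 and −1.94 after 30 min, −3.19, −2.39 and −2.42 after 45 min, and −3.20, −2.72 and −2.45 after 60 min. The groups overlap at all times, and replicate 1 was the lowest at each. The change at 60 against 7.5 min was −0.20 (SE 0.32, limma adjusted p = 0.719; 12.2% of genes called), and 0.00 without labelled 60 min replicate 1. The change at 15 against 7.5 min was 0.57 (SE 0.32, adjusted p = 0.507; 0.765% of genes called), and at 60 against 15 min, a pair chosen after the values were seen, it was −0.77 (SE 0.32, adjusted p = 0.194; 3.87% of genes called). None of these 3 changes passed in this fit, which does not show that the strands ran alike. With the replicate letters as a block, the changes at 15 against 7.5 min and at 60 against 15 min were called (limma adjusted p = 0.0115 and 0.00106). The change at 60 against 7.5 min was not (limma adjusted p = 0.207). Whether libraries of the same letter are pairs is not known, so the answer depends on that choice. Relative to MT-ND5 alone, MT-ND6 had 20.7% ± 6.69 of its TPM after 7.5 min, 32.3% ± 11.1 after 15 min, 23.1% ± 5.07 after 30 min, 17% ± 5.65 after 45 min and 14.6% ± 3.98 after 60 min (SD, n = 3 each).

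**Figure D3:**
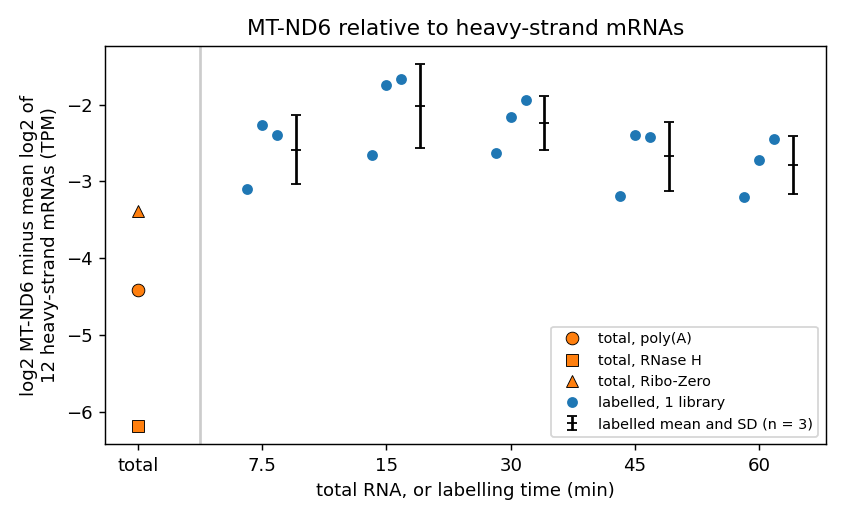
Log2 level of MT-ND6 less the mean log2 level of 12 heavy-strand mitochondrial mRNAs in total RNA (orange, 1 library per selection method) and in labelled RNA by labelling time in min (blue, with mean and SD, n = 3). The 3 total libraries lie at −4.41, −6.19 and −3.39, below the lowest labelled library at −3.20.

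The members' levels in total RNA differed widely between the methods used against ribosomal RNA. The Ribo-Zero library held 30.5 TPM of MT-ND1, against 7542 TPM in the poly(A) library and 6981 TPM in the RNase H library. For MT-ND4 the values were 53.1 TPM with Ribo-Zero, 9293 TPM with poly(A) selection and 11120 TPM with RNase H, and for MT-ND5 they were 37.0, 7784 and 7320 TPM in the same order. All 7 members were at least 10-fold lower with Ribo-Zero than with RNase H, as were 0.587% of 11078 genes, and at least 10-fold lower than with poly(A) selection, as were 0.641%. Each method has 1 library, so these differences have no replicate check.

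The loss with Ribo-Zero was uneven between members. MT-ND1, MT-ND2, MT-ND4 and MT-ND5 kept a ratio of 0.00437, 0.00504, 0.00478 and 0.00506 to the RNase H library. MT-ND3 kept 0.0475 and MT-ND4L 0.0275, and MT-ND6 kept 0.0821, the highest ratio of the 7. Against the poly(A) library MT-ND3 had the highest, 0.0255, followed by MT-ND6 at 0.0195 and MT-ND4L at 0.0118. Of the other mitochondrial mRNAs MT-CO3 kept 0.0869 and MT-ATP8 0.00309. MT-ND4L was 89.1% of MT-ND4 with Ribo-Zero, 43.2% with poly(A) selection, 15.5% with RNase H and between 27.2% and 46.3% in the labelled libraries, although both are carried on the same mRNA.

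**Figure D4:**
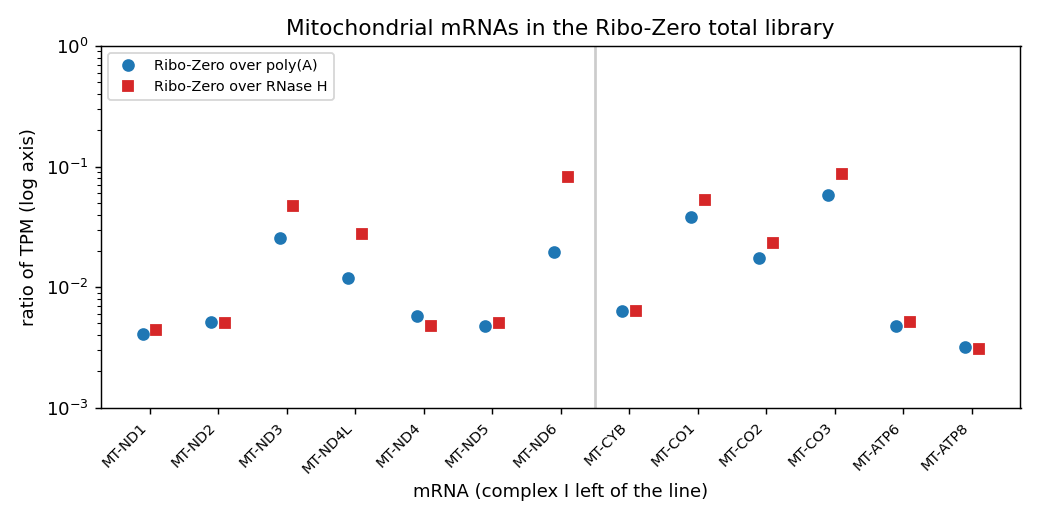
Ratio of TPM (log axis) in the Ribo-Zero total library to the poly(A) library (blue circles) and the RNase H library (red squares) for 13 mitochondrial mRNAs, 1 library per method. MT-ND1, MT-ND2, MT-ND4 and MT-ND5 sit near 0.005, and MT-ND6 shows the widest gap between the ratios, 0.0195 to poly(A) and 0.0821 to RNase H.

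In TPM, poly(A) selection and RNase H depletion gave MT-ND1, MT-ND2, MT-ND4 and MT-ND5 within a ratio of 0.836 to 1.08 of each other. The short members stood higher in TPM with poly(A) selection, by 1.86 times for MT-ND3 and 2.33 times for MT-ND4L. MT-ND6 had 472 TPM in the poly(A) library and 112 TPM in the RNase H library, a ratio of 4.20. At least a doubling of TPM in that direction was seen for MT-ND4L and MT-ND6, and for 10.5% of 11078 genes. The authors' deposited copies per cell, on another scale, ran the other way. All 7 members had fewer copies with poly(A) selection than with RNase H, such as 427 against 1280 for MT-ND3 and 271 against 638 for MT-ND4L. The gap was wide for MT-ND1 (487 against 2502) and small for MT-ND6 (37.2 against 44.5). Relative to the long members, the short members and MT-ND6 thus stood higher with poly(A) selection on both scales. The mitochondrial 16S rRNA, MT-RNR2, had 21538 TPM with poly(A) selection, 9.64 TPM with RNase H and 3.78 TPM with Ribo-Zero, and the 12S rRNA, MT-RNR1, had 665, 0.34 and 0.24 TPM.

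Each total library was also set against newly made RNA, as a share of the 60 min mean. How ribosomal RNA was kept out of the labelled libraries is not given in the labels. MT-RNR2 averaged 8083 ± 1067 TPM at 60 min (SD, n = 3), unlike any of the total libraries. In every comparison of total with labelled RNA here, the age of the RNA and the library preparation therefore cannot be told apart. MT-ND6 was at 27% of its 60 min mean with poly(A) selection, 6.43% with RNase H and 0.528% with Ribo-Zero. With poly(A) selection and with RNase H, in that order, MT-ND1 stood at 33.0% and 30.6%, MT-ND2 at 44.7% and 45.5%, MT-ND4 at 57.4% and 68.7%, and MT-ND5 at 63.9% and 60.1%. MT-ND4L stood at 80.4% and 34.5%, and MT-ND3 at 171% and 91.7%. MT-ND6 was the lowest member in both of these libraries but not with Ribo-Zero, where MT-ND1 stood at 0.134%.

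By limma 6 of 7 members (all but MT-ND3) were lower in total than in labelled 60 min RNA, and 40.1% of 16580 genes were. The median log2 change was −3.23 over the members and −0.84 over all genes. MT-ND6 changed by −4.40 on the log2 scale (SE 0.81, adjusted p = 2.73e-04) and MT-ND1 by −4.24 (SE 1.32, adjusted p = 0.014). These sizes rest on the Ribo-Zero library. Without it 4 members were called lower, as were 28.7% of 16672 genes: MT-ND6 by −2.90 (SE 0.43, limma adjusted p = 8.68e-05), MT-ND1 by −1.62, MT-ND2 by −1.14 and MT-ND4L by −0.92, beside a median of −0.67 over all genes. MT-ND4 (−0.66), MT-ND5 (−0.68) and MT-ND3 (0.34) then did not pass. Under median-ratio scaling MT-ND6 was the 1 member called, and 2 to 3 members were called without any 1 of the labelled 60 min libraries.

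The difference between the strands itself depended on the Ribo-Zero library. MT-ND6 less the 12 heavy-strand mRNAs was −4.41 with poly(A) selection, −6.19 with RNase H and −3.39 with Ribo-Zero, against −3.20, −2.72 and −2.45 in the libraries at 60 min. With all 3 total libraries the change was −1.83 (SE 1.05, limma adjusted p = 0.298; 3.06% of genes called). Without the Ribo-Zero library it was −2.50 (SE 0.45, limma adjusted p = 8.02e-04; 13.6% of genes called lower), and without the RNase H library −1.05 (adjusted p = 0.325). The design text calls the libraries strand-specific, but the strand setting of the counting is not stated, so heavy-strand RNA over the MT-ND6 locus cannot be told apart from MT-ND6 in these values.

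Among the heavy-strand members the balance also differed between total and new RNA. MT-ND5 was at 103%, 105% and 121% of MT-ND1 in the poly(A), RNase H and Ribo-Zero total libraries. In labelled RNA it was at 52.5% ± 3.77 after 7.5 min, 37% ± 3.01 after 15 min, 48% ± 8.83 after 30 min, 51.6% ± 6.45 after 45 min and 54.8% ± 8.70 after 60 min (SD, n = 3 each). All 15 labelled libraries lay below all 3 total libraries, and the 15 min libraries (34.2% to 40.2%) lay below those at 7.5 min (49.9% to 56.8%). These ratios were chosen after the values were seen and have no test.

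The authors' deposited table of rates, which they estimated with INSPEcT from the labelling data, put the members at the top of synthesis and spread them over degradation. Scores there are on a log10 scale. In the authors' deposited table MT-ND1 had the highest synthesis score of 15120 genes, 3.02, followed among the members by MT-ND2 at 2.97, MT-ND4 at 2.83, MT-ND5 at 2.70, MT-ND4L at 2.37, MT-ND3 at 2.27 and MT-ND6 at 2. Only 15 genes of the authors' deposited table scored above MT-ND6 for synthesis, and the other 12 mitochondrial mRNAs were among them. A high synthesis score was therefore not particular to the complex I members. Its degradation score in the authors' deposited table was 0.49, with 89.3% of genes at or below it, and the heavy-strand members ran from −0.47 (MT-ND3, 11.4% of genes at or below) to 0.12 (MT-ND1, 67.6%). As linear ratios from the authors' deposited table, MT-ND6 had 0.17 of the synthesis and 4.62 times the degradation of the median heavy-strand member. The authors' deposited table places MT-ND6 in cluster 6, with 1645 genes, and the other 12 mitochondrial mRNAs in cluster 3, with 3293 genes. These scores pool the labelling times and come from the same libraries as the TPM, so they have no replicate and are no separate evidence.

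**Figure D5:**
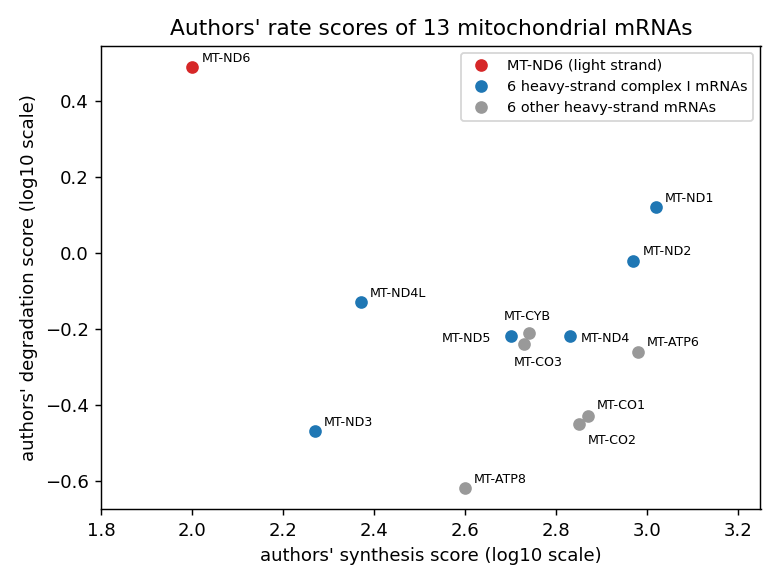
Degradation score against synthesis score, both log10, from the authors' deposited table for 13 mitochondrial mRNAs. MT-ND6 (red) has the lowest synthesis score, 2, and the highest degradation score, 0.49, of the 13.

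Other columns of the authors' deposited table describe where the mRNAs are found. For the balance of polysomal over cytosolic RNA, the authors' deposited table gives the members log2 scores from −1.26 (MT-ND4L) to −0.52 (MT-ND6), with 2.6% to 17.1% of genes at or below them. For cytoplasmic over nuclear RNA they run from −0.28 (MT-ND6) to 0.53 (MT-ND4L). All 7 have the lowest translation score in the authors' deposited table, −2.97, which 23.9% of genes share. A lowest value shared so widely does not set the members apart or order them, and their translation was not examined. The authors' deposited copies per cell of MT-ND4 were 591 with poly(A) selection, 3941 with RNase H and 12.5 with Ribo-Zero. For MT-ND6 the authors' deposited copies per cell were 37.2, 44.5 and 2.03 in the same order.

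The nuclear genes for complex I moved the other way in labelled RNA. Of 37 nuclear subunit genes 19 fell at 60 against 7.5 min and none rose by limma, with a median log2 change of −1.13 beside 0.24 over all genes tested, of which 4.21% fell. NDUFB1, an accessory subunit of the membrane arm, had 15.5, 18.9 and 23.7 TPM at 60 min and 133, 99.6 and 260 TPM at 7.5 min (log2 change −2.92, SE 0.68, limma adjusted p = 0.00712). NDUFA1, another accessory subunit, averaged 6.18 ± 1.74 TPM after 60 min and 39.4 ± 21.2 TPM after 7.5 min (SD, n = 3 each). Its log2 change was −2.37. NDUFB2 fell by 1.96 and NDUFB7 by 1.95 on the log2 scale. Of the 3 most abundant at 7.5 min, NDUFB8 fell by 1.44 and NDUFS5 by 1.71, and the third was NDUFB1. Under the scalings and left-out libraries tried, 16 to 24 genes of the list were called lower and none higher. With a pseudocount of 0.1 TPM in place of 1, NDUFB1 (−2.98, limma adjusted p = 0.109) and NDUFA1 (−2.53, limma adjusted p = 0.116) were not called, and NDUFA1 was not called without labelled 7.5 min replicate 3 (−1.99, limma adjusted p = 0.0519). In total RNA NDUFB1 had 278, 146 and 169 TPM in the poly(A), RNase H and Ribo-Zero libraries, so the Ribo-Zero library held a level between the others. NDUFA1 had 77.4, 39.2 and 40.6 TPM there. The 7.5 min means of NDUFB1 (164 TPM) and NDUFA1 lay within these total values, while that of NDUFS5 (167 TPM) lay below its own (354, 273 and 224 TPM). How much unlabelled RNA the pull-down carried is not known, and its part in these and other changes from 7.5 min was not tested.

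Nuclear genes that act on mitochondrial RNA or DNA, most of them in transcribing, processing, protecting or degrading the RNA, were mixed. Of 33 such genes 11 rose and 2 fell at 60 against 7.5 min, with a median log2 change of 0.74, where 15.8% of all genes rose and 4.21% fell. TWNK, the helicase of mitochondrial DNA replication, had 101, 69.5 and 77.1 TPM at 60 min and 23.5, 12.2 and 19.2 TPM at 7.5 min (log2 change 2.14, SE 0.28, limma adjusted p = 1.13e-04). FASTKD3, of the FASTK family of mitochondrial RNA-binding proteins, rose by 2.06, and TFB2M, the initiation factor of mitochondrial transcription, rose by 1.55. HSD17B10, a subunit of the enzyme that cuts tRNA 5′ ends, averaged 14.1 ± 2.37 TPM after 60 min and 49.8 ± 3.34 TPM after 7.5 min (SD, n = 3 each). Its log2 change was −1.76 with a limma adjusted p of 0.0011. SLIRP, the partner of LRPPRC, fell by 1.23 (limma adjusted p = 0.0348), while MRPL12 (−0.37) and PTCD3 (0.47) did not pass. With median-ratio scaling or quantile normalization 5 of the 33 rose and 3 fell, and TFB2M was not called. Without labelled 7.5 min replicate 1 the counts were 7 and 1. TFB2M also lost its call without replicate 1 or 2 of either time (limma adjusted p from 0.0592 to 0.0794). SLIRP lost it without replicate 1 or 3 of either time (limma adjusted p from 0.0833 to 0.141) and with no filter on low values (0.0787).

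Nuclear copies of the members could take some of their reads. Of 208 nuclear pseudogenes with MTND symbols 18 reached a mean of 1 TPM in labelled or total libraries. MTND2P28, at chr1:629640-630683 of GRCh38, is 98.4% identical to MT-ND2 over 1042 aligned bases, and it had 844, 790 and 578 TPM at 60 min and 471, 424 and 356 TPM at 7.5 min. That was 2.96% to 4.27% of MT-ND2 in the labelled libraries and 0.33% to 1.84% in the total libraries. If reads of MT-ND2 were counted for MTND2P28, MT-ND2 would change by at most about that share. Such reads could make up all of the MTND2P28 value, and this was not tested. MTND1P32, which is 70.8% identical to MT-ND1, averaged 2.90 TPM at 60 min and 6.61 TPM at 7.5 min, and MTND5P15, 79.2% identical to MT-ND5 over 308 bases, 0.64 and 9.03 TPM.

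The 6 other heavy-strand mRNAs framed the members: at 60 against 7.5 min MT-CYB (log2 change 0.93) and MT-CO1 (0.79) passed, and MT-CO2, MT-CO3, MT-ATP6 and MT-ATP8 did not (−0.06 to 0.67). Of the mitochondrial rRNAs, MT-RNR1 rose by 1.27 on the log2 scale (limma adjusted p = 1.92e-04), and MT-RNR2 did not pass (0.37, limma adjusted p = 0.264). Outside the mitochondrial genome, the genes whose log2(TPM + 1) was most like that of MT-ND6 over the 15 labelled libraries were H2BC20P and ARIH1 (Pearson r 0.877 each), KIAA0753 (0.832) and UACA (0.818), where the median r over 12359 genes was 0.091. Most like MT-ND5 were NSMCE3 (0.977), ATF4 (0.972), DNAJB1 (0.969) and VAMP2 (0.968), with a median of 0.16. These are the highest of many correlations, over libraries that span the 5 labelling times and share their TPM scaling, and they are given as a description.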

How the data were processed

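The members and gene lists were chosen with earlier results of these data known. The authors deposited TPM per gene; per the file headers they came from RSEM on GENCODE release 19 with an added whole-locus isoform per gene, and for intronless genes, such as all members, both values were summed. RSEM 1.2.11, Bowtie 1.0.1 and hg19 are named in the submitters' processing notes. The authors' deposited copies per cell are a signal scaled to spike-ins, per the file headers. The authors' deposited rate and translation scores are log10, and their localisation scores are log2, per the file headers. Against the log10 of the authors' linear rates of 4163 genes, the slope was 0.956 for the synthesis score and 0.951 for the degradation score. The scales of the translation and localisation scores were not checked.

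Symbols came from GENCODE release 29 (82.1% of 63568 identifiers matched). Mature TPM, as log2(TPM + 1), were fitted with limma 3.58.1 (trend; R 4.3.3) over genes with a mean of at least 1 TPM, 15 labelled libraries for labelled comparisons and 18 for total RNA, with Benjamini-Hochberg adjustment at 0.05. On this scale the change of weakly expressed genes is understated. For MT-ND6 against the heavy strand, the mean of 12 heavy-strand mRNAs was subtracted from every gene per library first. The fits were run on simulated data with independent noise per library. These data held no shared replicate effect and no effect of selection method, so the run does not cover either. Named genes were the 7 members, the other mitochondrial mRNAs and rRNAs, the 3 highest MTND pseudogenes, per nuclear list the 4 largest called changes and the 3 most abundant at 7.5 min, and the 4 genes most correlated with MT-ND6 and with MT-ND5. Python 3.11.15, pandas 2.3.3 and Biopython 1.88 were used for the rest. Alternatives were other pseudocounts, filters, scalings, comparison sets, a replicate block and left-out libraries. The members' processing rates, imputed for intronless genes per the file headers, were not used.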

Additional observations from a re-analysis of the deposited data

How the results depend on the processing

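Alternatives are given as counts or log2 changes, and the cause of each move was not tested. The 4 members called higher at 60 against 7.5 min became 0 with no filter on low values, 1 with TPM rescaled over mature transcripts, with or without the mitochondrial ones, 0 with median-ratio scaling, 1 with quantile normalization, and 2 in a fit of only the 6 libraries, and left-out libraries gave 1 to 5. The 2 members called over the 5 times became 0 with a pseudocount of 0.1 TPM, with no filter and with either rescaling, and 1 with median-ratio scaling or quantile normalization, and left-out libraries gave 0 to 3. The 6 called lower in total RNA became 1 with no filter or with median-ratio scaling, and 2 to 7 with left-out libraries. The 13 called mitochondrial RNA machinery genes became 8 with median-ratio scaling or quantile normalization, and left-out libraries gave 8 to 16. MT-ND6 relative to the heavy strand ranged from −0.46 to 0.00 at 60 against 7.5 min over left-out libraries, and from −2.50 to −1.05 in total RNA.

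Signs turned for values near 0. MT-ND3 at 60 against 7.5 min was 0.00 with TPM rescaled over mature transcripts and −0.11 with median-ratio scaling, and MT-ND3 in total RNA ran from −2.30 (without the poly(A) library) to 0.34 (without the Ribo-Zero library). MT-ND6 relative to the heavy strand at 45 against 7.5 min was 0.03 against the 6 heavy-strand mRNAs outside complex I, and left-out libraries gave −0.33 (without 7.5 min replicate 1) to 0.18 (without 45 min replicate 1).

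Replicate letters A, B and C are shared by the labelling times. Same-letter libraries at 60 and 7.5 min correlated in their deviations at 0.273, 0.084 and 0.089. There 60 min replicate 3 correlated best with 7.5 min replicate 2 (0.128). The same letters gave 0.275, 0.095 and 0.128 at 15 and 7.5 min and 0.27, 0.017 and 0.194 at 60 and 15 min. All same-letter values were positive, and replicate 1 correlated negatively with the other letters throughout (−0.245 to −0.085). The letters were not taken as pairs, so the main fits leave out a likeness that replicate 1, at least, showed between times. With a replicate block 6 members were called at 60 against 7.5 min and 6 over the 5 times, 20 machinery genes (18 higher) and 24 nuclear complex I genes were called, and MT-ND6 relative to the heavy strand was −0.20 at 60 against 7.5 min (limma adjusted p = 0.207), but was called at 15 against 7.5 min (0.57, SE 0.11, limma adjusted p = 0.0115) and at 60 against 15 min (−0.77, SE 0.11, limma adjusted p = 0.00106). Comparisons with the library that had the fewest genes above 0, labelled 45 min replicate 2, left out, and MT-ND6 relative to the heavy strand at 15, 30 and 45 against 7.5 min and at 60 against 15 min, were added after the data had been seen. Depth is unknown, so no counting error can be given.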
